A study of Mus musculus with 4 samples.

Results

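The genes described here are 31 immediate early and activity-induced genes, the transcripts that neurons switch on within minutes to hours of firing. They were taken from a list of gene symbols, all 31 were found by symbol among 19388 genes with values, and 28 of them had a mean of at least 1 FPKM over the samples and were tested. Egr2, Klf4 and Maff fell short of that mean and are given as values alone. The mice were C57BL/6, an inbred laboratory strain, and the poly(A) RNA of 4 hippocampal samples was sequenced. Of these, 2 came from mice treated with (+)-sodium L-ascorbate, the sodium form of vitamin C, and 2 from mice given phosphate-buffered saline (PBS). The series describes 30 days of treatment and calls the mice middle-aged, with an age in months and the hour of sampling not given in the sources used here. In each group the samples are numbered 1 and 2, and the labels do not say what a number stands for, nor whether a sample is 1 animal or a pool, so p-values here measure only the spread between these samples. Values are FPKM, fragment numbers divided by transcript length and library total, so levels of different genes can be compared.

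Synaptic calcium entry and neurotrophin signalling activate kinases that phosphorylate transcription factors already bound at these genes, chiefly CREB and the serum response factor SRF. The first wave of products is largely transcription factors of the AP-1, EGR and NR4A families and NPAS4, together with ARC and the phosphatases that end the kinase signal. A later wave encodes proteins that act at synapses, such as BDNF and NPTX2. In the hippocampus their mRNA is used as a mark of recently active neurons, and many of the same genes also answer to stress, growth factors or blood flow in other cells.

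The promoters of 6 members are shown because CREB binds the palindrome TGACGTCA, the cyclic AMP response element (CRE), and its half-site TGACG, and these members moved in different ways between the samples. The half-site was added to the motifs searched, and Nr4a2 took the place of Fosl2 (no half-site) among the promoters printed, after the sequences and first matches had been seen, so the counts for all 6 motifs are given. Of the 31 genes, 24 had an entry in the RefSeq promoter table (GRCm38.p6, 250 bases before to 50 after a start), with 37 starts in all. The 7 without an entry were Arc, Egr1, Egr3, Ier2, Nptx2, Sik1 and Trib1. Capitals mark TGACG on either strand, written as CGTCA where it lies on the other strand. The sequences run 5′ to 3′ on the gene's strand, and lie at chr15:101266596-101266895 (plus strand) for Nr4a1, chr2:57123954-57124253 (minus) for Nr4a2, chr4:48045055-48045354 (plus) for Nr4a3, chr13:93303507-93303806 (plus) for Homer1, chr12:85473640-85473939 (plus) for Fos and chr17:26508423-26508722 (minus) for Dusp1.
Nr4a1: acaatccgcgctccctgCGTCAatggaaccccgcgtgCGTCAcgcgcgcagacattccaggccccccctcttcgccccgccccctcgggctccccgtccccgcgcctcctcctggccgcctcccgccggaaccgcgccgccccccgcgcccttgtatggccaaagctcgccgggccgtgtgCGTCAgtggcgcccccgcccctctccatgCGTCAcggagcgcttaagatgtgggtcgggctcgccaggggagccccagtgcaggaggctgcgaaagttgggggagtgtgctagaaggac
Nr4a2: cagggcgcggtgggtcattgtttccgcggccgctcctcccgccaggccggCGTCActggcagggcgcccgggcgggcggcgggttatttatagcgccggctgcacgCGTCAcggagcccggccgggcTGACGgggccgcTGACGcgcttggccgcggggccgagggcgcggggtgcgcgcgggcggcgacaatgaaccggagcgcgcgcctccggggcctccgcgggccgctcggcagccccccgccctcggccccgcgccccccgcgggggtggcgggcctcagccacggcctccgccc
Nr4a3: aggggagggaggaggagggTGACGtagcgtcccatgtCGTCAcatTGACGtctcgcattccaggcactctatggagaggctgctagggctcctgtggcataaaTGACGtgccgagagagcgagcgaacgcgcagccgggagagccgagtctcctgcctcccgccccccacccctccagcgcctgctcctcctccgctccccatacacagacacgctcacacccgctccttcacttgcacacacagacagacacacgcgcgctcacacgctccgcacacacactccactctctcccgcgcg
Homer1: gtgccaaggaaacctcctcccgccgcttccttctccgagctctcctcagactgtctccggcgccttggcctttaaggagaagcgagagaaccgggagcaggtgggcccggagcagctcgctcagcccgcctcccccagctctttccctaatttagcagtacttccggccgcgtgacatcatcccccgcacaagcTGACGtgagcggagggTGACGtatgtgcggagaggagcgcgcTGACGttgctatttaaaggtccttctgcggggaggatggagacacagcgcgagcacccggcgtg
Fos: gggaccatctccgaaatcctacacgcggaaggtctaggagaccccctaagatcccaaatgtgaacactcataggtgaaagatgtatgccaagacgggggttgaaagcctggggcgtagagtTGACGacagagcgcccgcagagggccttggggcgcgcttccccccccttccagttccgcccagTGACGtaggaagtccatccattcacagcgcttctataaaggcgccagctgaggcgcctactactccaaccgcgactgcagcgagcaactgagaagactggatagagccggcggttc
Dusp1: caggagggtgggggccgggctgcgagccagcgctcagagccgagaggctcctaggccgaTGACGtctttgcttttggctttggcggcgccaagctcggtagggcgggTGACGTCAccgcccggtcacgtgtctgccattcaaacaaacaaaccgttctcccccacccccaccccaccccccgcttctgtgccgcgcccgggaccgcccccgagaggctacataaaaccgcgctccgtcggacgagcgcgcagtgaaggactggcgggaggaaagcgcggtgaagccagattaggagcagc

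Each of the 3 NR4A promoters held 4 half-sites, a number that 0.231% of all 32851 promoters in the table reach. Homer1, at the start shown, and Dusp1 held 3, and 1.03% of promoters hold at least 3. Homer1 has 2 starts in the promoter table, and the other held no half-site. In Dusp1, 2 of the 3 matches are the arms of a full CRE, so they overlap each other. Fos held 2, and 5.01% of promoters hold at least 2. Among the 37 starts of members, 21 starts of 18 genes held at least 1 half-site, where 20.8% of all promoters do. The full CRE was in the promoters of Btg2, Dusp1 and Maff (1.79% of all promoters). A CArG box, the element that SRF binds, was found at Dusp5 and Egr2 (1.63%). The EGR site GCGNGGGCG was found at 9 genes, among them Fosb, Fosl2, Nr4a1 and Nr4a2 (5.55%), and the AP-1 site TGANTCA at Bdnf (7.81%). The NR4A element AAAGGTCA was in none of the 37 windows (1.51% of all promoters). Both strands were searched, and a match says only that these letters lie in the window.

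Levels of region markers differed between the samples numbered 1 and those numbered 2, whichever treatment they had. The marker lists were chosen with earlier results of these data known. All 11 thalamic markers were higher in the samples numbered 1, as 60.8% of tested genes were. They summed to 355 FPKM with ascorbate and 329 FPKM with PBS there, against 52.0 and 44.5 FPKM in the samples numbered 2. All 9 hippocampus-defining genes were lower in the samples numbered 1, as 39.2% of tested genes were. Their sums were 139 and 109 FPKM against 315 and 276 FPKM, and none of them was at 0 in any group. The 10 CA1 pyramidal markers summed to 88.9 and 65.7 FPKM in the samples numbered 1, against 202 and 205 FPKM in those numbered 2. They include Dcn, which is on the meningeal list too, at 12.7 and 26.5 FPKM, against 14.1 and 45.8 FPKM. Spink8 and Wfs1 are on both the CA1 list and the hippocampus-defining list. The 11 CA2 and CA3 markers did not follow, at sums of 898 and 831 FPKM, against 308 and 279 FPKM. Pcp4 made most of those sums (755 and 704 FPKM, against 140 and 136 FPKM). By sign, 6 of the 11 were higher in the samples numbered 1 and 5 lower. Separately, 12 choroid plexus markers summed to 224 and 47.6 FPKM with ascorbate, against 9662 and 8913 FPKM with PBS. In bulk tissue, fewer cells of a type and less RNA per cell cannot be told apart.

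Most of the 28 tested genes had lower levels in the samples numbered 1 than in those numbered 2, and their median was negative with ascorbate and with PBS. Of the 28, 6 fell in the samples numbered 1 (limma-trend, Benjamini-Hochberg adjusted p under the threshold of 0.05) and 0 rose. They were the nuclear receptors Nr4a3 and Nr4a1, the synaptic scaffold Homer1, the AP-1 factor Fosl2, the zinc finger factor Egr3 and the neurotrophin Bdnf. Over all 13372 genes tested, 5.03% were called lower and 6.95% higher. At an unadjusted p under 0.05, 17 of the 28 were lower and 0 higher, against 10.9% and 19.0% of tested genes. Both samples numbered 1 lay below both samples numbered 2 for 21 of the 28, where 22.6% of tested genes did so, and above them for 3 (Fos, Dusp1 and Nptx2), where 38.5% did. The sign was negative for 22 of the 28 and positive for 6, where 39.2% and 60.8% of tested genes had these signs. The median log2 difference, number 1 minus number 2, was -0.55 over the 28 genes and 0.082 over all tested genes. It was -0.36 within ascorbate and -0.75 within PBS. Thalamic and hippocampal markers differed between the same samples, by medians of 2.45 and -0.77, and their part in these values was not tested. Calls among the 28 genes fell to 0 without ascorbate 1 or without PBS 1, to 3 without ascorbate 2 and to 4 without PBS 2, fits that leave 1 sample of a number, assumed to vary like the others. With treatment added to the model, 18 of the 28 were called and 3708 of all 13372 tested genes, 2392 higher and 1316 lower. The genes gained were Nr4a2, Arc, Junb, Jun, Fosb, Egr1, Egr4, Npas4, Dusp5, Ier5 and Btg2 on the lower side and Nptx2 on the higher. The overall split of 929 genes higher and 673 lower became 669 higher and 757 lower after rescaling to TPM.

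**Figure D1:**
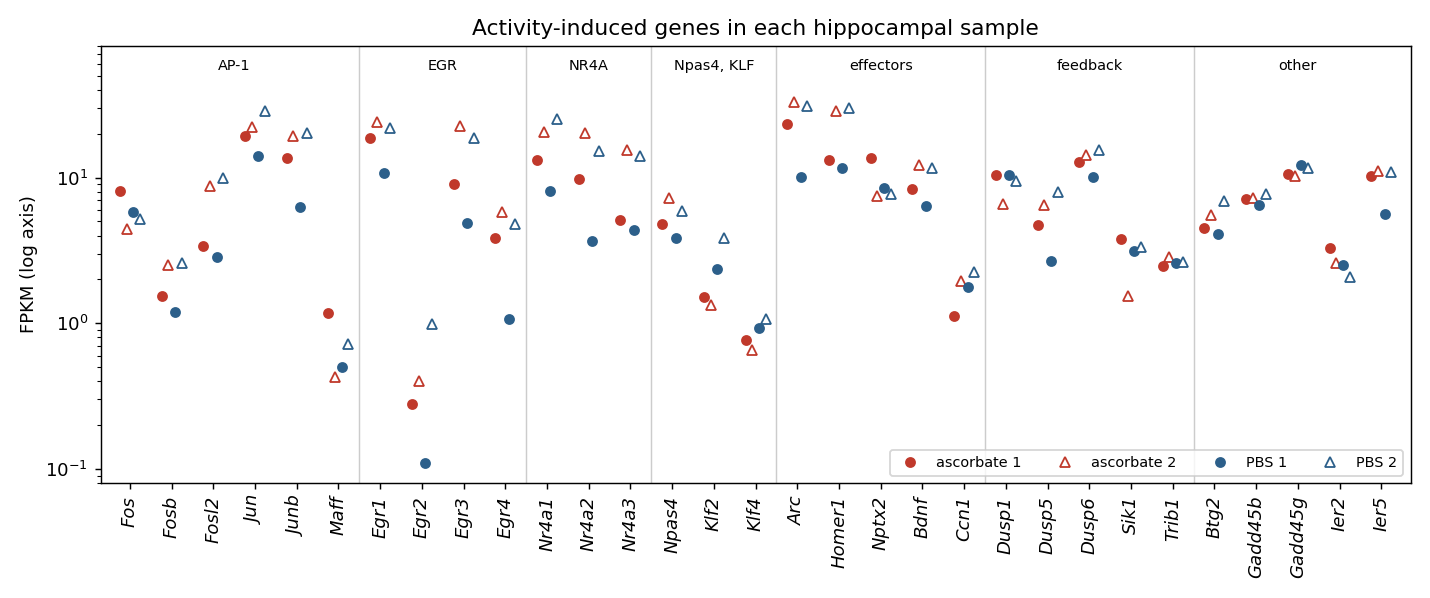
FPKM (log axis) of the 31 genes in each sample, ordered by role; red is ascorbate, blue is PBS, filled circles are samples numbered 1 and open triangles those numbered 2. For Nr4a3, Fosl2 and Homer1 the filled circles sit together far below the triangles, while for Fos and Nptx2 the triangles are the lower pair.

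The NR4A genes encode orphan nuclear receptors that act without a known circulating ligand. Nr4a3 (gene ID 18124, chromosome 4, 48045078 to 48086447, GRCm38), whose promoter with 4 half-sites is shown above, had 5.08 FPKM in ascorbate 1 and 4.38 FPKM in PBS 1, against 15.5 FPKM in ascorbate 2 and 14.1 FPKM in PBS 2. Both samples numbered 1 were thus low, and the treatments within a number lay close together. The log2 difference, number 1 minus number 2, was -1.46 (SE 0.125, adjusted p = 0.0064), the smallest p among the members. Nr4a1 (gene ID 15370, chromosome 15, 101253902 to 101274795) had 13.2 and 8.14 FPKM in the samples numbered 1, against 20.6 and 25.2 FPKM in those numbered 2 (ascorbate first in each pair). It fell by 1.07 on the log2 scale in the samples numbered 1 (SE 0.227, adjusted p = 0.0389), a call lost with no filter, in limma without trend and with any 1 sample left out. Nr4a2, which dopamine neurons also need for their development, had 9.83 FPKM in ascorbate 1 and 3.68 FPKM in PBS 1, against 20.1 FPKM in ascorbate 2 and 15.2 FPKM in PBS 2. Its difference of -1.38 (SE 0.389) was as large as that of its relatives but did not pass, at an adjusted p of 0.0793. Here the 2 samples numbered 1 were themselves 2.67-fold apart, with ascorbate 1 above PBS 1.

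The EGR genes encode zinc finger factors that follow synaptic activity and seizures. Egr3 (gene ID 13655, chromosome 14, 70077317 to 70082613) had 9.08 FPKM in ascorbate 1 and 4.90 FPKM in PBS 1, against 22.7 FPKM in ascorbate 2 and 18.8 FPKM in PBS 2. It had the largest difference of the 28, -1.49 (SE 0.262, adjusted p = 0.0246), a call lost with no filter and without ascorbate 1, ascorbate 2 or PBS 1. Egr1, the most used reporter of the family, had 18.8 and 10.8 FPKM in the samples numbered 1, against 23.9 and 21.9 FPKM in those numbered 2, a difference of -0.65 (SE 0.246, adjusted p = 0.148). Egr4 had 3.85 FPKM in ascorbate 1 and 1.07 FPKM in PBS 1, against 5.78 FPKM in ascorbate 2 and 4.81 FPKM in PBS 2, with PBS 1 far below the other samples. Its difference was -0.99 (SE 0.392, adjusted p = 0.162). Egr2, also a factor of myelinating Schwann cells, was scarce at 0.280 and 0.110 FPKM in the samples numbered 1, against 0.40 and 0.99 FPKM in those numbered 2, and was not tested. All 4 genes thus had both samples numbered 1 below both samples numbered 2, where 22.6% of tested genes did. Egr2 is not among the tested genes to which that share refers. Egr3 alone passed, where 5.03% of tested genes were called lower, and Egr1 and Egr4 were called too once treatment was added to the model.

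AP-1 is a dimer of a FOS and a JUN protein, or of their relatives. Fosl2 (gene ID 14284, chromosome 5, 32136472 to 32157840) had 3.37 FPKM in ascorbate 1 and 2.83 FPKM in PBS 1, against 8.74 FPKM in ascorbate 2 and 9.88 FPKM in PBS 2. It fell by 1.33 on the log2 scale in the samples numbered 1 (SE 0.138, adjusted p = 0.00864). Fos itself (gene ID 14281, chromosome 12, 85473890 to 85477274) went the other way, with 8.07 FPKM in ascorbate 1 and 5.79 FPKM in PBS 1, against 4.42 FPKM in ascorbate 2 and 5.18 FPKM in PBS 2. Its difference of 0.44 (SE 0.178) did not pass, at an adjusted p of 0.168. Fosb, whose truncated form accumulates on repeated stimulation and is not separated in gene-level values, had 1.53 and 1.20 FPKM in the samples numbered 1, against 2.52 and 2.59 FPKM in those numbered 2. Junb had 13.7 FPKM in ascorbate 1 and 6.28 FPKM in PBS 1, against 19.3 FPKM in ascorbate 2 and 20.3 FPKM in PBS 2. Jun had 19.2 and 14.1 FPKM in the samples numbered 1, against 22.1 and 28.5 FPKM in those numbered 2. Differences for Fosb, Junb and Jun were -0.59, -1.01 and -0.58, with adjusted p of 0.086, 0.101 and 0.108. Maff, a small partner that lacks an activation domain, had 1.18 FPKM in ascorbate 1 and 0.430 to 0.720 FPKM in the other samples.

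Among factors outside these families, Npas4, which is induced by neuronal calcium entry and shapes inhibitory synapses, had 4.78 and 3.82 FPKM in the samples numbered 1, against 7.28 and 5.87 FPKM in those numbered 2. The difference was -0.51 (SE 0.162, adjusted p = 0.101), and it was nearly the same within ascorbate (-0.52) and within PBS (-0.51). Klf2 and Klf4, factors that answer to blood flow in endothelium, did not separate the numbers. Klf4 stayed between 0.660 and 1.07 FPKM in the 4 samples.

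The effector genes act at the synapse or in the surrounding matrix. Homer1 (gene ID 26556, chromosome 13, 93303757 to 93405129), whose short activity-induced form competes with the long scaffold and is not separated here, had 13.2 FPKM in ascorbate 1 and 11.6 FPKM in PBS 1, against 28.4 FPKM in ascorbate 2 and 30.0 FPKM in PBS 2. Its log2 difference was -1.18 (SE 0.113, adjusted p = 0.00787). Bdnf (gene ID 12064, chromosome 2, 109674700 to 109727043), the ligand of the TrkB receptor, has 7 starts in the promoter table, and its gene-level value adds their transcripts. It had 8.38 and 6.33 FPKM in the samples numbered 1, against 12.1 and 11.7 FPKM in those numbered 2, a difference of -0.64 (SE 0.149, adjusted p = 0.049). The call for Bdnf was lost with a pseudocount of 0.1 or 0.5, with no filter, in limma without trend and with any 1 sample left out. Arc (gene ID 11838, chromosome 15, 74669081 to 74672570), which drives the removal of AMPA receptors from synapses, had the highest mean level of the 31 over the 4 samples, though not in PBS 1. It had 23.2 FPKM in ascorbate 1 and 10.0 FPKM in PBS 1, against 33.2 FPKM in ascorbate 2 and 30.7 FPKM in PBS 2. The Arc difference of -1.01 (SE 0.350) did not pass, at an adjusted p of 0.124, and PBS 1 was the sample that stood lowest. Nptx2, a secreted pentraxin that clusters AMPA receptors, ran opposite, with 13.6 FPKM in ascorbate 1 and 8.44 FPKM in PBS 1, against 7.45 FPKM in ascorbate 2 and 7.77 FPKM in PBS 2 (difference 0.45, SE 0.213, adjusted p = 0.226). The matricellular gene Ccn1 lay between 1.12 and 2.26 FPKM.

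Feedback genes restrain the signal that induced them, and the Dusp genes encode phosphatases that switch kinases off. Dusp1, a nuclear phosphatase of stress-activated kinases, had 10.3 and 10.4 FPKM in the samples numbered 1, against 6.58 and 9.46 FPKM in those numbered 2 (difference 0.36, SE 0.173, adjusted p = 0.233). The dual-specificity phosphatases Dusp5 and Dusp6 had the opposite sign. Dusp5 had 4.74 FPKM in ascorbate 1 and 2.66 FPKM in PBS 1, against 6.51 FPKM in ascorbate 2 and 7.92 FPKM in PBS 2 (difference -0.84, SE 0.237, adjusted p = 0.0803). Dusp6 had 12.9 and 10.1 FPKM in the samples numbered 1, against 14.4 and 15.4 FPKM in those numbered 2 (difference -0.36, SE 0.141, adjusted p = 0.159). Btg2, an antiproliferative factor, had 4.51 and 4.13 FPKM, against 5.50 and 6.88 FPKM (difference -0.43, SE 0.147, adjusted p = 0.123). The other 6 tested genes, the feedback genes Sik1 and Trib1 and the inducible genes Gadd45b, Gadd45g, Ier2 and Ier5, had differences from -0.48 for Ier5 to 0.43 for Sik1, and adjusted p from 0.257 to 0.820. The sign for Gadd45g, 0.054, turned to -0.048 after rescaling to TPM and to -0.026 with median-of-ratios scaling.

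**Figure D2:**
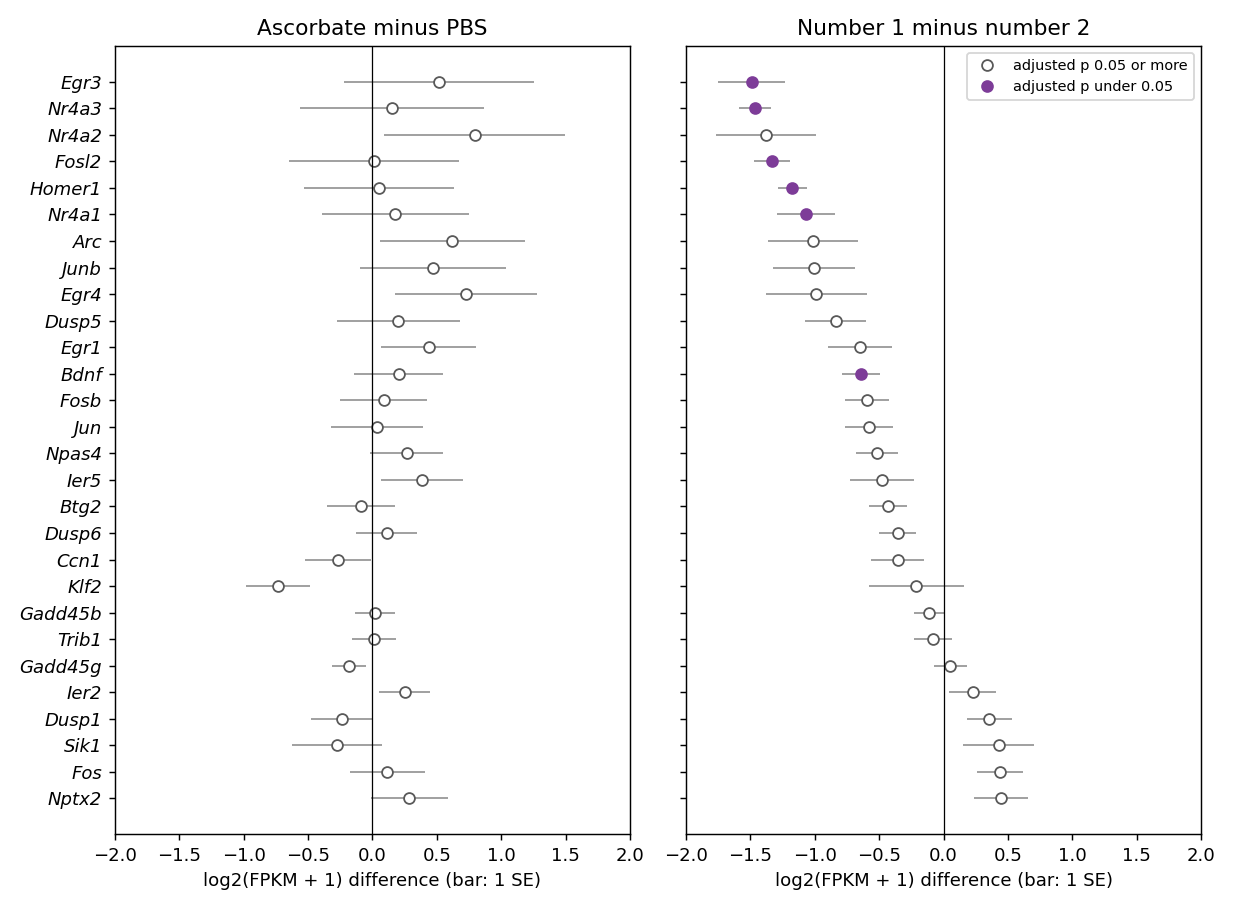
Log2(FPKM + 1) differences of the 28 tested genes with 1 SE, ascorbate minus PBS on the left and number 1 minus number 2 on the right; filled points passed the adjusted threshold of 0.05. Between the numbers 6 genes passed, from Egr3 at -1.49 to Bdnf at -0.64, and between the treatments 0 did.

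Between the treatments, 0 of the 28 genes passed in limma-trend with treatment alone in the model, as did 0.0% of all tested genes. With sample number added as a replicate block, 1 of the 28 passed, and 485 of all 13372 tested genes. Of those 485, 32 were higher with ascorbate and 453 lower. That fit has 1 residual degree of freedom. The member that passed was Nr4a2, on the higher side (difference 0.79, adjusted p = 0.0099 in the block fit). Klf2 and Egr3 did not pass there, at adjusted p of 0.0515 and 0.0564. Without the block, at an unadjusted p under 0.05, 0 of the 28 were higher with ascorbate (0.0972% of tested genes) and 1 was lower (2.72%). The lower gene was Klf2, with 1.51 and 1.34 FPKM in the ascorbate samples, against 2.36 and 3.83 FPKM in the PBS samples. Its log2 difference was -0.73 (SE 0.249, adjusted p = 1.0 in limma-trend without the block), and the groups did not overlap. Markers of endothelial and mural cells, kept together in a single list, had a negative difference in 11 of 11 tested, where 54.2% of tested genes did. The groups did not overlap for 7 of the 11, where 14.4% of tested genes were lower in this way. The 12 listed summed to 57.2 and 62.6 FPKM with ascorbate, against 104 and 118 FPKM with PBS. Of this, Vtn made 21.3 and 19.5 FPKM, against 48.2 and 44.0 FPKM, while Cldn5 had 2.84 and 2.96 FPKM, against 3.43 and 3.65 FPKM. Medians, ascorbate minus PBS, were -0.37 for the endothelial and mural list, -3.87 for the choroid plexus list and -1.54 for the meningeal list. The part of these 3 lists in the Klf2 value was not tested. Klf4, not tested, had 0.770 and 0.660 FPKM with ascorbate, against 0.930 and 1.07 FPKM with PBS.

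Of the other genes, Gadd45g, a stress sensor, had 10.5 and 10.2 FPKM with ascorbate, against 12.2 and 11.6 FPKM with PBS (difference -0.18, SE 0.132). Ier2 had 3.27 and 2.58 FPKM with ascorbate, against 2.52 and 2.07 FPKM with PBS (difference 0.25, SE 0.197). Among the 28 genes, Klf2 and Gadd45g had both ascorbate samples below both PBS samples, where 14.4% of tested genes did, and Ier2 had both above, where 8.65% did. The positive differences were largest for Nr4a2 (0.79, SE 0.703), Egr4 (0.73, SE 0.554), Arc (0.62, SE 0.560) and Egr3 (0.52, SE 0.738). In each of these 4 genes the groups overlapped, and the SE was between 0.554 and 0.738, with the difference between the numbers included in that spread. The median over the 28 genes was 0.13, against -0.018 over all tested genes, and 22 of the 28 had a positive difference and 6 a negative one, where 45.8% and 54.2% of tested genes did. Without PBS 1 that median was -0.18, without PBS 2 it was 0.52, without ascorbate 1 it was 0.36, and without ascorbate 2 it was 0.0065.

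Within the number 1 pair, ascorbate 1 stood above PBS 1 in 23 of the 28 genes and below it in 5, where 47.2% and 52.5% of tested genes were, and by a log2 difference of at least 0.5 in 10 of them (2.79% of tested genes). These 10 were Egr4 (1.23), Nr4a2 (1.21), Arc (1.13), Junb (1.01), Egr3 (0.77), Ier5 (0.75), Egr1 (0.75), Dusp5 (0.65), Nr4a1 (0.63) and Nptx2 (0.63). None of the 28 was lower by 0.5 or more in that pair, as 4.67% of tested genes were. The median over the 28 genes was 0.30, against -0.016 over all tested genes. In FPKM, ascorbate 1 was 3.60-fold above PBS 1 for Egr4, 2.67-fold for Nr4a2, 2.31-fold for Arc and 2.18-fold for Junb. In the same pair, 5 of 10 heat shock and handling stress genes were higher in ascorbate 1 and 5 were lower. By at least 0.5, 2 were higher and 0 lower. Those 2 were Hspa1a, at 9.53 FPKM in ascorbate 1 and 3.75 FPKM in PBS 1, and Hspa1b, at 9.39 FPKM and 3.81 FPKM. The heat shock and handling stress list of 10 genes had a median of 0.11 in that pair and -0.26 in the number 2 pair, and its part in the values of the 28 genes was not tested. Each pair is 1 sample against 1, with no test.

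Within the number 2 pair, ascorbate 2 stood above PBS 2 in 11 of the 28 genes and below it in 17, where 43.9% and 55.8% of tested genes were. By at least 0.5, 0 were higher (0.912% of tested genes) and 2 were lower (6.84%). The lower genes were Klf2 (-1.05) and the kinase Sik1 (-0.77), which had 1.54 FPKM in ascorbate 2 and 3.32 FPKM in PBS 2. Arc was 1.08-fold, Egr4 1.20-fold, Nr4a2 1.32-fold and Junb 0.949-fold of PBS 2 in ascorbate 2. The median was -0.072 over the 28 genes and -0.030 over all tested genes, and it was 0.022 after rescaling to TPM. Members that stood at least 0.5 higher with ascorbate in the number 1 pair therefore lay between -0.28 (Nr4a1) and 0.38 (Nr4a2) in the number 2 pair, a difference between pairs that was not tested.

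**Figure D3:**
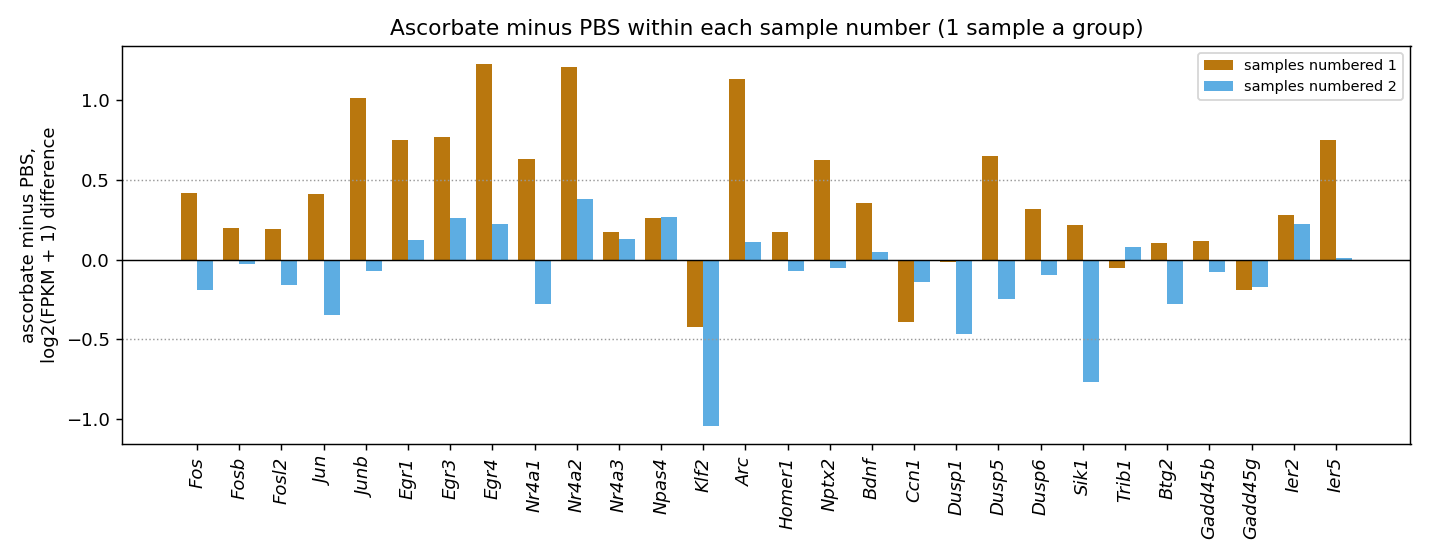
Ascorbate minus PBS in log2(FPKM + 1) for each of the 28 tested genes, orange for the samples numbered 1 and light blue for those numbered 2 (1 sample a group); dotted lines mark 0.5 and -0.5. Orange bars of 10 genes pass 0.5, with Egr4 at 1.23 the tallest, and 0 blue bars do.

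A single library, PBS 1, was the lowest of the 4 for 19 of the 28 genes, where it was the lowest for 20.9% of tested genes without a tie. The others were lowest for 2 (ascorbate 1), 6 (ascorbate 2) and 1 (PBS 2) of the 28. The highest value was in ascorbate 2 for 10 genes and in PBS 2 for 12, where 24.8% and 13.1% of tested genes had theirs. The highest sample was a median of 2.09-fold above the lowest over the 28 genes, against 1.39-fold over 13327 tested genes without a 0. PBS 1 also had the lowest sums of hippocampus-defining genes (109 FPKM) and of CA1 markers (65.7 FPKM, against 88.9 FPKM in ascorbate 1, its partner by number). These lists share Spink8 and Wfs1, so their sums are not independent. Spink8 had 11.55 FPKM in ascorbate 1 and 3.85 FPKM in PBS 1, and Wfs1 had 18.65 and 10.28 FPKM. The CA1 median in the number 1 pair was 0.81, ascorbate minus PBS, and its part in the higher values of ascorbate 1 was not tested.

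The upstream machinery, from receptors to transcription factors, also differed between the numbers. Of 36 tested genes of that list, 14 fell in the samples numbered 1 and 0 rose, where 5.03% and 6.95% of tested genes did, with a list median of -0.47. Without overlap between the numbers, 28 of the 36 were lower there and 4 higher, where 22.6% and 38.5% of tested genes were. The NMDA receptor subunit Grin2b had 8.09 and 7.91 FPKM in the samples numbered 1, against 23.7 and 21.9 FPKM in those numbered 2 (difference -1.40, SE 0.106, adjusted p = 0.00537). Its fellow subunit Grin2a (-1.30) and the transcription factor Mef2c (-0.91) also fell, with adjusted p of 0.0064 and 0.0106. Srf, the factor of the CArG box, fell by 0.64 (adjusted p = 0.0272), while Creb1 differed by -0.033 (adjusted p = 0.887). Thalamic and hippocampus-defining markers differed by medians of 2.45 and -0.77 between the same samples, and their part in the values of this list was not tested. Between the treatments 0 of the 36 passed in limma-trend, and 0 had an unadjusted p under 0.05. At that level 2.72% of tested genes were lower and 0.0972% higher. There the smallest p were those of Rps6ka5 (-0.20), Grin1 (0.31), Creb1 (-0.15) and Ppp3cb (0.19), each with an adjusted p of 1.0.

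A second list held 37 tested activity-induced genes that are not members, and it was evenly divided between the numbers. In the samples numbered 1, 3 fell and 3 rose, where 5.03% and 6.95% of all tested genes did, with a median of -4.0e-04. The prostaglandin synthase Ptgs2 had 1.94 and 3.24 FPKM in the samples numbered 1, against 8.25 and 7.84 FPKM in those numbered 2 (difference -1.36, SE 0.199, adjusted p = 0.0161). The activin subunit Inhba (-0.83) and the sorting receptor Sorcs3 (-0.67) also fell, with adjusted p of 0.0255 and 0.0354. The enkephalin precursor Penk, abundant in striatum too, rose, with 31.8 and 26.5 FPKM in the samples numbered 1, against 13.8 and 15.9 FPKM in those numbered 2 (difference 0.92, SE 0.137, adjusted p = 0.0162). The granin Scg2 (0.90) and the G protein regulator Rgs2 (0.60) rose as well, with adjusted p of 0.0469 and 0.0366. The striatal marker list, which holds Penk itself, had a median of 0.52 between the same samples, and its part in the Penk value was not tested.

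With ascorbate, 0 genes of this second list passed in limma-trend, as did 0.0% of all tested genes. At an unadjusted p under 0.05, 1 of the 37 was lower and 0 were higher. Over all tested genes, 2.72% were lower and 0.0972% higher at that level, so the list did not stand out. The kinase Sgk1, which is induced by corticosteroids, had the smallest p of the list, with 48.1 and 64.9 FPKM in the ascorbate samples, against 109.5 and 95.04 FPKM in the PBS samples (difference -0.86, SE 0.215, adjusted p = 0.966). Arl4d (-0.41) and Sertad1 (-0.28) followed on the lower side. The secreted precursor Vgf was 86.5 and 48.4 FPKM with ascorbate, against 45.0 and 44.7 FPKM with PBS (difference 0.52, SE 0.312, adjusted p = 1.0), with ascorbate 1 standing apart.

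**Figure D4:**
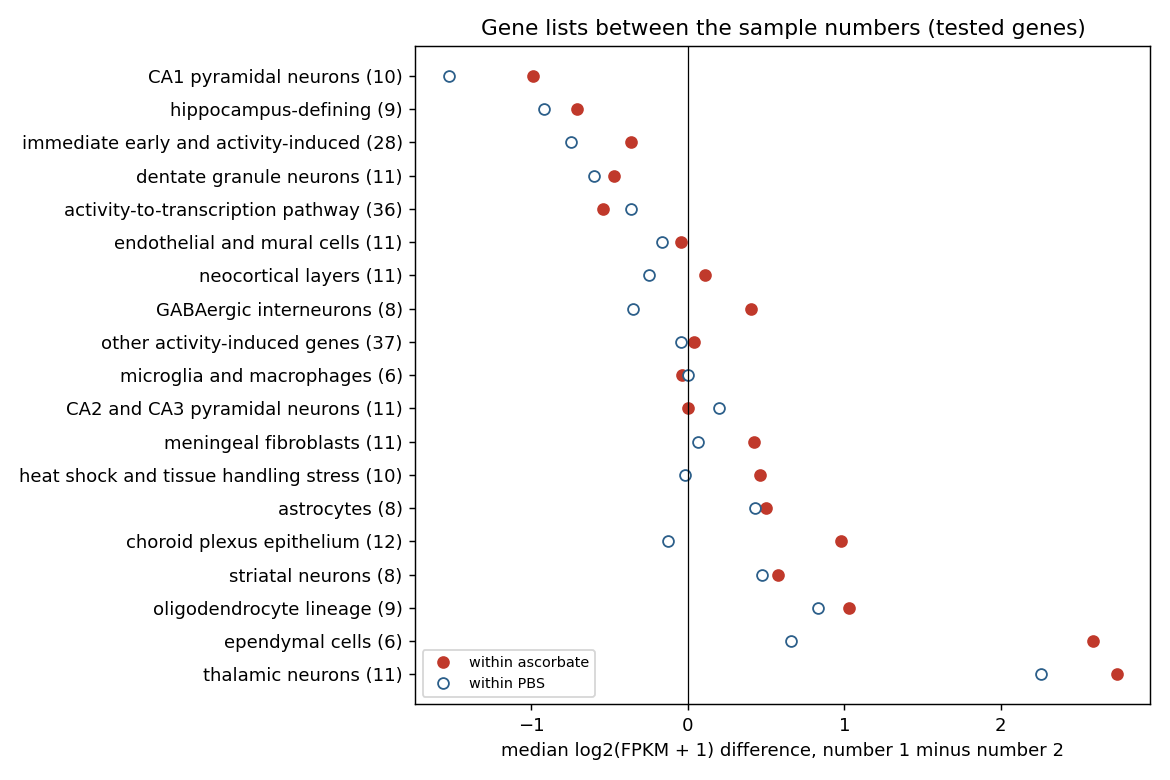
Median log2(FPKM + 1) difference, number 1 minus number 2, of each gene list (tested genes in brackets), within ascorbate in filled red and within PBS in open blue. The 28 genes described here lie at -0.36 and -0.75, the other activity-induced genes at 0.041 and -0.046, and the thalamic list at 2.74 and 2.25.

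In the heat shock and handling stress list, 0 of 10 genes passed between the numbers in limma-trend. Over all tested genes, 5.03% were called lower and 6.95% higher. At an unadjusted p under 0.05, 1 of the 10 was lower and 1 higher, near the 10.9% and 19.0% of all tested genes. The sum of the list was 2406 and 2544 FPKM in the samples numbered 1, against 1888 and 2312 FPKM in those numbered 2. Of the oligodendrocyte lineage list, 6 of 9 rose in the samples numbered 1, where 6.95% of all tested genes did, and 0 fell. The difference was positive for 7 of them and negative for 2, Pdgfra (-0.083) and Cspg4 (-0.36). Of the dentate granule markers, 6 of 11 fell, where 5.03% of all tested genes did, and 0 rose. Their difference was negative for 9 and positive for 2, Dock10 (0.15) and Plk5 (0.063). Reads of Jun, Bdnf and Dusp5 may be shared with noncoding transcripts of near-identical sequence, and Dusp6, Egr2, Nr4a2 and Sik1 overlap other genes, none of them listed in the files, so these 7 values carry that uncertainty.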

How the data were processed

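Poly(A)-selected RNA of 4 hippocampal samples was sequenced, per the labels' protocols. Each deposited file holds FPKM of 1 library to 2 decimals, per the file headers. HISAT2, Bowtie2, RSEM and DESeq2 with GRCm38 are named in the submitters' processing notes, and versions, annotation and strand setting are not given in the sources used here. FPKM carry no read total, so the depth is unknown, and they summed to 386956 and 348133 in ascorbate samples 1 and 2, and to 391142 and 372683 in PBS samples 1 and 2.

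From these values, the 13372 genes averaging 1 FPKM or more entered limma-trend fits of log2(FPKM + 1), run in limma 3.58.1 under R 4.3.3, with treatment or with sample number as the factor, and p-values were Benjamini-Hochberg adjusted over all of them. Fold differences on this scale understate changes of low genes. The fit was tested on simulated data that held no difference between the sample numbers. That test therefore does not show how often the treatment fit finds changes in these samples. The members, the lists and the motifs were chosen with earlier results of these data known. Every member is named, with values in each sample for the AP-1, EGR and NR4A families, Arc, Npas4 and the 8 others of smallest p, and 4 genes of smallest p per wider list and comparison, of which 1 is not reported here. Gene positions come from RefSeq (GRCm38.p6), and transcripts were compared with GENCODE M21 by BLAST+ 2.17.0 (95% identity over 200 bases). Alternatives were pseudocounts of 0.1 and 0.5, other filters and scalings, other variance settings, a replicate block, treatment in the number model, and each sample left out.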

Additional observations from a re-analysis of the deposited data

How the results depend on the processing

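Between the treatments, 0 members were called in every alternative run but the replicate block, where 1 (Nr4a2) was. The block leaves 1 residual degree of freedom and moves the count over all 13372 genes to 485, 32 higher and 453 lower. Same-numbered samples deviated together (correlation 0.770 across genes, which are not independent replicates), but the labels give the number no meaning. Between the numbers, 6 members were called, and 5 of them with a pseudocount of 0.1 or 0.5, 5 without trend (4 of the 6, and Fosb), 3 with no filter, 18 with treatment in the model and 0 to 4 with a sample left out. Robust variances, the 3 other scalings and a minimum of 5 FPKM gave the same 6. The median between the numbers lay from -0.74 to -0.38 with a sample left out. A minimum of 5 FPKM, which removes low members, left 0 members above and 1 below without overlap between treatments. Over all genes, calls between the numbers numbered 586 with no filter, 3708 with treatment in the model and 0 to 1731 with a sample left out. The sign of Btg2 turned to 0.0029 between treatments with quantile normalization, and that of Gadd45g between the numbers to -0.048 (TPM) and -0.026 (median of ratios).

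With a sample left out, ascorbate minus PBS ranged from -0.14 to 1.38 for Arc, -0.19 to 0.60 for Bdnf, -0.40 to 0.22 for Btg2, -0.53 to 0.052 for Dusp1, -0.44 to 0.84 for Dusp5, -0.17 to 0.39 for Dusp6, -0.043 to 0.92 for Egr1, -0.36 to 1.39 for Egr3, -0.019 to 1.47 for Egr4, -0.26 to 0.49 for Fos, -0.27 to 0.44 for Fosb, -0.74 to 0.77 for Fosl2, -0.086 to 0.12 for Gadd45b, -0.60 to 0.70 for Homer1, -0.043 to 0.81 for Ier5, -0.45 to 0.51 for Jun, -0.30 to 1.25 for Junb, -0.11 to 0.68 for Nptx2, -0.58 to 0.94 for Nr4a1, -0.10 to 1.69 for Nr4a2, -0.59 to 0.90 for Nr4a3, -0.74 to 0.19 for Sik1 and -0.059 to 0.087 for Trib1. Number 1 minus number 2 ranged from -0.042 to 0.15 for Gadd45g and from -0.73 to 0.31 for Klf2. The cause of these changes was not tested. Unknown depth limits low members such as Egr2 and Maff.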
